A study of Mus musculus with 2 samples.

Results

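The genes given in the feature table as Cdx2, Elf5, Krt7, Hand1, Gata3, Tfap2a, Ascl2, Plac1, Rhox6 and Rhox9, are described here as trophoblast lineage genes. They were chosen by symbol, all 10 were found, and they are 10 of the 55415 features of the table. The samples were mouse embryonic stem cells, which renew themselves in culture and can form the tissues of the embryo, carrying a GFP reporter driven by the promoter of MERVL, an endogenous retrovirus transcribed in a state that resembles the 2-cell embryo (the 2C-like state), and the nuclear label H2B-mIFP for following cells. One single-cell library was labelled MERVL GFP positive and one MERVL GFP negative. Both groups therefore share the stem cell line, the reporter and the nuclear label, no treatment, age or time point is given for either, and whether the line is a single clone is not given in the sources used here. The design text describes the line as a way to mark the 2C-like state and to track cells, and how the cells were separated by reporter is not stated.

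The trophoblast is the first lineage to separate from the cells that form the embryo, and it builds most of the placenta. In the mouse blastocyst the transcription factors CDX2 and GATA3 act in its outer cells, and CDX2 and ELF5 maintain trophoblast stem cells. Embryonic stem cells normally contribute little to it, and cells in the 2C-like state have been studied for a wider potential. Zscan4 is a gene family transcribed in that state. GATA6 is a transcription factor of the primitive endoderm, the extraembryonic layer that lines the yolk sac, and DAB2 is an adaptor protein of that layer.

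The members have different roles. CDX2 is a homeobox factor that sets up the trophoblast, and ELF5 is an ETS-family factor of trophoblast stem cells. GATA3 is a zinc finger factor and TFAP2A is an AP-2 factor of early trophoblast and surface ectoderm. HAND1 is a helix-loop-helix factor needed for giant cells, and ASCL2 is a helix-loop-helix factor of the spongiotrophoblast and an imprinted gene. KRT7 is a keratin of simple epithelia, and PLAC1 is a placental protein encoded on the X chromosome. Rhox6 and Rhox9 are homeobox genes of the X-linked reproductive homeobox cluster. Several are also used outside the trophoblast, so a UMI of 1 member does not mark a trophoblast cell.

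On the mm10 build the genes lie at the following places, as GENCODE M21 annotates them. Cdx2 (ENSMUSG00000029646) is on chromosome 5 from 147300805 to 147307270, Elf5 (ENSMUSG00000027186) on chromosome 2 from 103411688 to 103450989, and Gata3 (ENSMUSG00000015619) on chromosome 2 from 9857078 to 9890034. Hand1 is on chromosome 11 from 57828705 to 57832818, Ascl2 on chromosome 7 from 142966829 to 142969264, Krt7 on chromosome 15 from 101411043 to 101430313, and Tfap2a on chromosome 13 from 40715302 to 40738376. Plac1 is on the X chromosome from 53069995 to 53240111, where Rhox6 (37826910 to 37829857) and Rhox9 (37899097 to 37901770) lie in the same gene cluster on opposite strands. All 10 are protein-coding. Rhox6 and Rhox9 transcripts matched at 91.5% of 816 aligned bases with an unbroken shared run of 161 bases, so reads could be assigned to either gene and their separate values are uncertain. Gata3 overlaps 9230102O04Rik on the same strand, a gene with 44 UMIs in the positive and 8 in the negative library. Tfap2a overlaps the antisense gene Gm47061, with 128 and 95 UMIs, and whether the counting used strand is not given in the sources used here.

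The RefSeq promoter windows of Gata3, which was called lower with Gata6 and Dab2 in both libraries, and of Cdx2, which had a higher level there on few UMIs (below), are shown, from 250 bases before to 50 after the annotated start, in GRCm38.p6 and 5′ to 3′ along the gene. Capitals mark matches to the GATA factor motif, here GATAA or GATAG preceded by A or T, searched on both strands.
Gata3 (chr2:9878551-9878850, minus strand): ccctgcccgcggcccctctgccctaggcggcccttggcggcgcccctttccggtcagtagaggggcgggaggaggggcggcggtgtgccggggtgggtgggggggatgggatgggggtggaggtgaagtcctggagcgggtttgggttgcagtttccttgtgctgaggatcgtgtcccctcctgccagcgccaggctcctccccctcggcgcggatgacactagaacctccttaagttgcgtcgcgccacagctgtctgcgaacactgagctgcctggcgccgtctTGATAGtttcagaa
Cdx2 (chr5:147307200-147307499, minus strand): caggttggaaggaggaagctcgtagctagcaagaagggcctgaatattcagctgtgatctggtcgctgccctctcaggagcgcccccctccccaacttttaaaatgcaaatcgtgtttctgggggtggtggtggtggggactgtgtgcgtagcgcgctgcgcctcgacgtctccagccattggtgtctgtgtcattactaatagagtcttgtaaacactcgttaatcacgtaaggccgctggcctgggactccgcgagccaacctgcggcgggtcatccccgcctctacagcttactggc
The Gata3 window held 1 match and the Cdx2 window held 0, and 29.8% of 32851 promoter windows of the same length held at least 1. A match describes letters only, and its absence says only that these letters are not in this window. Of the 10 members, 7 had a window in the table, 10 windows in all, and Plac1 and Elf5 each had 1 window with a match, not printed here.

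The libraries were deep for single cells. After cells with under 1000 UMIs (molecule counts), under 500 genes or over 20% mitochondrial UMIs were left out, 4596 of 4603 positive-library cells and 3832 of 3832 negative-library cells remained. They held 138303336 and 156406894 UMIs in all, with medians of 29554 and 39100 UMIs per cell and medians of 2.56% and 1.60% mitochondrial UMIs. The libraries shared 3 cell barcodes. With 1 library per group and a batch label for each library, the group cannot be told apart from its batch and no test between groups was possible. The 95% intervals given cover counting error only. The reporter transcript followed the labels: GFP was at 205 CPM (UMIs scaled to a common total for each library or class) in the positive and 0.454 CPM in the negative library, and the 6 genes Zscan4a to Zscan4f together at 322 and 0.627 CPM. Lists of markers of other cell types also differed. Their counts of genes higher in the positive library stand beside 67.6% of the 19341 genes with at least 50 UMIs. Primitive endoderm markers summed to 232 and 117 CPM (10 of 10 higher in the positive library, none at 0). Mesoderm markers summed to 16.8 and 3.95 CPM (5 of 8 higher, none at 0). Msx2 gave most of the first sum (12.6 and 1.81 CPM), while Mesp1, Mixl1 and Tbx6 were lower. Fibroblast markers summed to 12.8 and 3.14 CPM (7 of 7 higher, Col3a1 and Postn at 0 in the negative library). Thy1 gave most of both sums (9.29 and 2.15 CPM), and others had few UMIs, such as Dcn (1 and 1) and Lum (2 and 1). Pluripotency markers summed to 2650 and 3320 CPM, with 1 of 8 higher in the positive library. Germline markers summed to 218 and 82.4 CPM (4 of 5 higher, none at 0). Surface ectoderm and neural crest markers summed to 24.4 and 22.9 CPM, nearly all of it Foxd3, with 6 of 7 higher and none at 0, among them Krt5 (22 and 1 UMIs), Tfap2b (30 and 3) and Pax3 (65 and 4). Visceral endoderm markers summed to 22.4 and 16.6 CPM (5 of 7 higher, Ttr at 0 in the negative library) and primed epiblast markers to 88.3 and 76.7 CPM (3 of 4 higher, none at 0). The trophoblast marker list, which holds all 10 members, summed to 64.4 and 66.5 CPM, with 12 of 14 higher and Tpbpa at 0 in the positive library. The part of these cell types in the differences between libraries was not tested, except where values without a class of cells are given.

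All 10 members were detected in both libraries, at low levels, and each had the higher CPM in the positive library, although Krt7 turned to the other direction under TMM and median-of-ratios scaling (log2 ratios of -0.17 and -0.07, against 0.13). Of the 19341 genes tested, 67.6% also had the higher CPM there. The summed level of the members was 34.6 CPM (Poisson interval 33.6 to 35.6) in the positive library. It was 20.3 CPM (19.6 to 21.0) in the negative one, which makes the ratio 1.70 (1.63 to 1.78). Gata3 had the largest ratio of the members that reached the minimum for a call. A gene was called when it had at least 50 UMIs over the compared cells and its CPM differed at least 2-fold. Of the 10 members 9 reached 50 UMIs, 4 were called higher in the positive library (Cdx2, Hand1, Gata3 and Plac1) and 0 lower. Among all 19341 genes tested, 18.3% were called higher and 2.48% lower. The median log2 ratio was 0.67 over the 9 members and 0.26 over all genes tested. With TMM scaling the all-gene median moved to -0.03, the share of higher calls among all called genes from 88.0% to 69.9%, and Hand1 fell under 2-fold, with a log2 ratio of 0.86. The median-of-ratios scaling gave 76.9% for that share and 0.95 for Hand1.

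**Figure D1:**
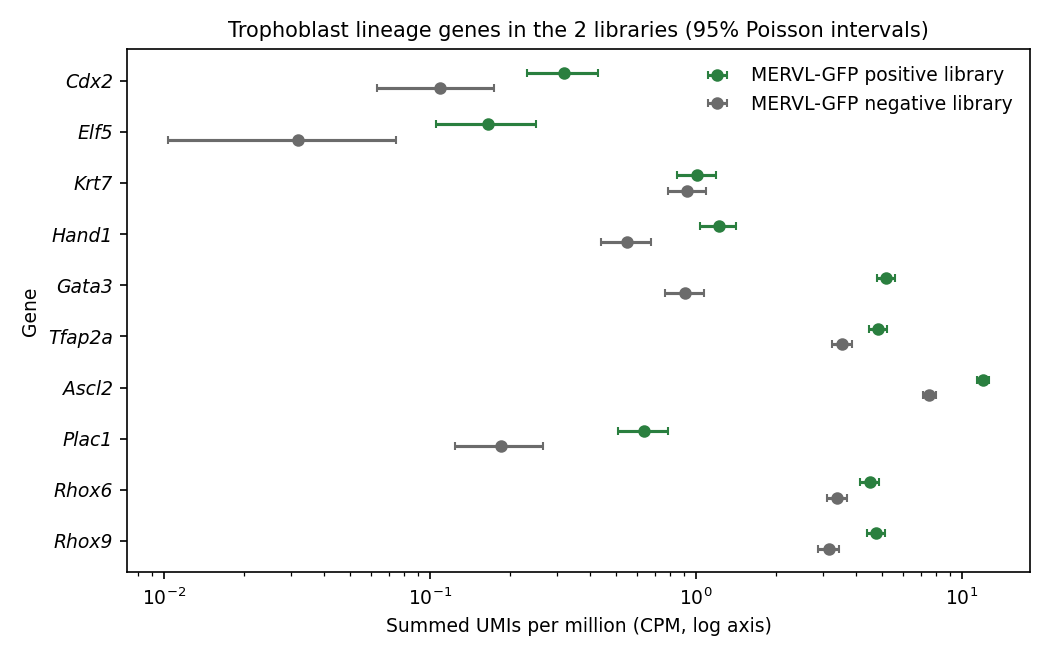
CPM of each member (log axis) in the MERVL-GFP positive and negative libraries, with 95% Poisson intervals and 1 library per group. Gata3 sits at 5.18 against 0.908 CPM, while the Krt7 intervals overlap.

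Among the factors that set up the trophoblast, Gata3 had 717 UMIs in the positive and 142 in the negative library. This was 5.18 CPM (4.81 to 5.58) against 0.908 CPM (0.765 to 1.07), a ratio of 5.71 (4.76 to 6.89), and the intervals do not overlap. Cdx2 had 44 and 17 UMIs, which gives 0.318 (0.231 to 0.427) and 0.109 (0.0633 to 0.174) CPM and a 2.93-fold difference (1.64 to 5.46). Both factors were higher in the positive library, but Cdx2 was seen in only 35 and 15 cells. Elf5 had 23 and 5 UMIs, each in a different cell, and stayed below the minimum for a call. Its ratio of 5.20 had a wide interval (1.93 to 17.5). Tfap2a had 668 and 554 UMIs, or 4.83 CPM (4.47 to 5.21) and 3.54 CPM (3.25 to 3.85), a ratio of 1.36. It was spread over many cells, and no cell held more than 8 of its UMIs.

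Among genes of differentiating trophoblast, Hand1 had 169 and 86 UMIs, or 1.22 CPM (1.04 to 1.42) and 0.550 CPM (0.440 to 0.679), a ratio of 2.22. Plac1 had 88 and 29 UMIs, or 0.636 CPM (0.510 to 0.784) and 0.185 CPM (0.124 to 0.266), a ratio of 3.43. Few cells held many of these UMIs: 53.3% of the positive-library Hand1 UMIs and 68.2% of the Plac1 UMIs were in 10 cells each. Without each gene's 10 highest cells per library, the Hand1 ratio was 1.68 (1.17 to 2.43). The Plac1 ratio was then larger, at 7.91 (2.77 to 31.1), on 28 and 4 UMIs, too few for a call. Only 14 negative-library cells held Plac1, against 38 in the positive library. Leaving out 10 in each removes 86.2% of its negative-library UMIs and so raises the ratio by construction. Ascl2 had 1658 and 1178 UMIs, or 12.0 CPM (11.4 to 12.6) and 7.53 CPM (7.11 to 7.97), a ratio of 1.59. Krt7 had 140 and 145 UMIs, or 1.01 CPM (0.852 to 1.19) and 0.927 CPM (0.782 to 1.09), and these intervals overlap. Rhox6 had 622 and 529 UMIs, or 4.50 CPM (4.15 to 4.87) and 3.38 CPM (3.10 to 3.68). Rhox9 had 657 and 493 UMIs, or 4.75 CPM (4.39 to 5.13) and 3.15 CPM (2.88 to 3.44). The Rhox6 sums turned on a single cell in each library, which held 131 of the 622 UMIs and 158 of the 529, where the next cell held 6 and 8. Without the 10 highest cells of each gene the ratios were 1.57 for Rhox6 and 1.99 for Rhox9, against 1.33 and 1.51 with all cells.

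For detection each cell was thinned to 10000 UMIs, and cells with fewer were dropped (194 positive-library and 8 negative-library cells). At that depth 24.8% of the 4402 cells left in the positive library (exact binomial 23.5 to 26.1) and 15.6% of the 3824 in the negative (14.4 to 16.7) held a UMI of at least 1 member, and without thinning 50.4% and 45.6% did. Gata3 was found in 4.11% (3.54 to 4.74) and 0.680% (0.445 to 0.995) of thinned cells, and in 10.2% and 2.95% unthinned. Ascl2 was found in 10.3% and 7.17%, Tfap2a in 4.59% and 3.35%, and Rhox9 in 4.02% and 2.14%. Cdx2 was found in 14 of the thinned positive-library cells and in 0 of 3824 in the negative library, which allows a share of up to 0.0785% if 3 counts are taken as the limit and 0.0964% by the exact binomial interval. Those limits are for cells at the thinned depth, and without thinning 0.762% and 0.391% of cells held a Cdx2 UMI. Most cells with a member carried a single UMI of it, from 69.3% of them for Hand1 to 100% for Elf5 in the positive library. No cell type in these libraries is known to lack all members, so free RNA has no reference share here and its part in these shares was not tested. The giant cell and spongiotrophoblast genes Prl3d1, Prl2c2, Prl3b1, Prl4a1 and Tpbpb had 0 UMIs in both libraries, and Tpbpa had 0 and 1. Others of that list were found: Prl8a9 had 10 and 7 UMIs, and Gcm1, a factor of the syncytiotrophoblast, had 42 and 27.

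Within the positive library the summed members differed little between cells with few and cells with many Zscan4 UMIs. Cells were classed by their thinned Zscan4 UMIs as 0 (1933 cells), 1 to 2 (1264), 3 to 9 (716) and at least 10 (489), and member levels were then summed from all UMIs of those cells. The members together were at 33.5, 35.7, 35.4 and 37.2 CPM across these classes, and the ratio of the highest to the lowest class was 1.11 (0.995 to 1.24), or 1.18 (1.06 to 1.32) without cells that hold 5 or more members. Of those cells, picked by the members they hold, 4 were in the lowest and 1 in the highest class. The larger second ratio follows in part from that choice. Gata3 was at 5.51 CPM (4.96 to 6.11), 4.44 (3.82 to 5.14), 5.79 (4.79 to 6.94) and 5.10 (3.83 to 6.65), so the top and bottom classes overlapped. Of 8 members with 50 UMIs over the compared classes, 0 were called higher in cells with at least 10 Zscan4 UMIs and 2 lower (Hand1 and Plac1), against 10.6% of 15575 genes called higher and 11.0% lower. Hand1 had 4 UMIs at 0.377 CPM against 83 at 1.28 CPM, a ratio of 0.295 (0.0786 to 0.785). Its level was 1.28, 1.23, 1.33 and 0.377 CPM from the lowest to the highest class, so only the highest class was low, and cells with any Zscan4 UMI against those with 0 gave a log2 ratio of -0.18, which is no call. Plac1 had 3 UMIs against 49, a ratio of 0.375 whose interval (0.0748 to 1.16) includes 1. Without the cells rich in members, described further on, the Hand1 ratio was 0.389 (0.103 to 1.05) and the Plac1 ratio was 0.876 (0.167 to 2.93), on 3 UMIs against 21, so neither interval excludes 1. Tfap2a was at 6.32 against 4.59 CPM, a ratio of 1.38 (1.04 to 1.80). Cdx2 had 1 UMI against 27, too few for a call. The median depth fell from 32916 UMIs per cell in the lowest Zscan4 class to 19996 in the highest, and the pluripotency markers from 3100 to 1300 CPM. The part of either in these values was not tested.

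The members were also read by the reporter transcript. GFP classes of 0, 1, 2 to 4 and at least 5 thinned UMIs held 1679, 846, 1102 and 775 cells, and the members together were at 38.9, 28.7, 32.0 and 35.8 CPM. The excess of the class with 0 over the others rested on 6 cells rich in members: without such cells the 4 levels were 32.0, 28.7, 32.0 and 35.6 CPM, and the ratio of the top class to the class with 0 turned from 0.921 to 1.11 (1.02 to 1.21). Those cells were picked by the members they hold, and the top class held only 1. This turn follows in part from that choice. Of 8 members tested, the top class had 0 called higher and 1 lower (Plac1), against 5.82% of 15645 genes called higher and 7.54% lower. Plac1 had 1 UMI in the top class and 62 in cells without GFP, a ratio of 0.0452 (0.00113 to 0.261). Many of those 62 UMIs were in the few cells rich in members mentioned above. Without those cells the counts were 1 and 20 UMIs, under the minimum for a call, and the ratio was 0.140 (0.00337 to 0.874). Gata3 was at 4.69 CPM (3.79 to 5.74) in the top class and 6.29 (5.65 to 6.98) in cells without GFP. Tfap2a, the member with the largest ratio in this contrast, was at 7.14 CPM (6.02 to 8.41) against 4.45 (3.92 to 5.04), a ratio of 1.60 (1.30 to 1.98). From cells without GFP to the top class the median depth fell from 32565 to 24890 UMIs per cell, and the pluripotency markers from 3030 to 1830 CPM. Whether either had a part in these values was not tested.

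**Figure D2:**
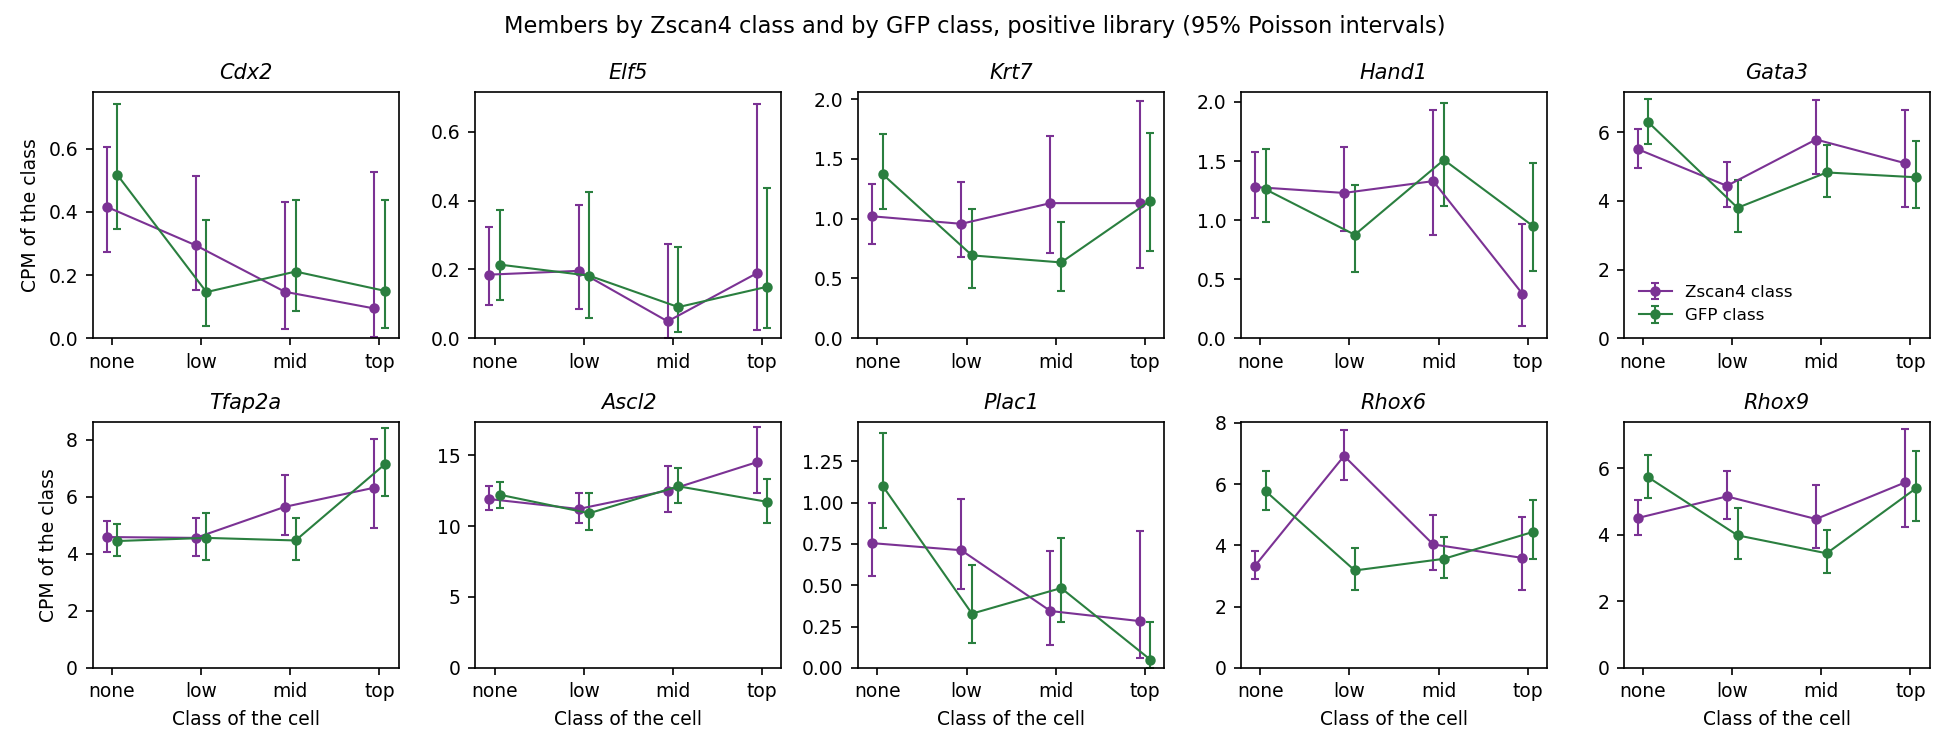
CPM of each member in 4 classes of positive-library cells by thinned Zscan4 UMIs (none 0, low 1 to 2, mid 3 to 9, top at least 10) and by thinned GFP UMIs (none 0, low 1, mid 2 to 4, top at least 5), with 95% Poisson intervals. Gata3 stays between 3.80 and 6.29 CPM in all 8 classes, and Plac1 is lowest in the top GFP class, at 0.0499 CPM.

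Gata3 differed between the libraries also in cells silent for all these readouts. In cells with 0 thinned UMIs of Zscan4, GFP, Gata6 and Dab2, 783 in the positive and 3345 in the negative library, Gata3 was at 6.64 CPM (5.70 to 7.69) and 0.847 CPM (0.700 to 1.02), a ratio of 7.84 (6.17 to 9.99). The Gata3 level of these positive-library cells was not below that of the whole library, 5.18 CPM. Among these were 3 positive-library and 5 negative-library cells rich in members (described further on), and without them Gata3 was at 6.41 and 0.791 CPM, a ratio of 8.10 (6.33 to 10.4). Hand1 was at 1.94 and 0.526 CPM with them and 1.20 and 0.410 without them, and Ascl2 at 13.7 and 7.58 CPM with them and 11.0 and 7.15 without. Plac1 came mostly from them: a single cell held 28 of its 36 positive-library UMIs, all 17 negative-library UMIs were in member-rich cells, and 8 and 0 UMIs were left without them. Rhox6 turned on 1 negative-library cell with 158 of its 445 UMIs. Its ratio was 0.987 (0.774 to 1.25) with all cells, and without the member-rich ones its interval lay above 1 (1.15 to 1.93). The ratio of Rhox9 was 1.54 (1.26 to 1.87) with them and 2.23 (1.81 to 2.74) without. For Tfap2a the ratio was 1.24 both ways. Cdx2 had 11 and 8 UMIs, or 0.410 CPM (0.205 to 0.734) and 0.0584 CPM (0.0252 to 0.115), a ratio of 7.02 (2.57 to 20.1), and none of these UMIs was in a member-rich cell. Krt7 was at 1.72 and 0.986 CPM, a ratio of 1.74 (1.22 to 2.45), and at 1.67 (1.06 to 2.56) without member-rich cells.

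With Gata6 and Dab2, Gata3 and Krt7 were called lower, Krt7 on 7 (positive library) and 0 (negative) top-class UMIs and negative-library Gata3 on 2. Cdx2 and Plac1 had higher levels, also on few UMIs. Cells were classed by the sum of thinned Gata6 and Dab2 UMIs as 0, 1, 2 to 4 and at least 5, with 3281, 541, 185 and 395 cells in the positive and 3361, 221, 40 and 202 cells in the negative library. The top class had 1840 CPM of primitive endoderm markers in the positive and 1620 in the negative library, against 42.2 and 22.5 in the class with 0, although that list holds Gata6 and Dab2 themselves. Its pluripotency markers were at 926 and 1490 CPM, against 2980 and 3450. Of 8 members tested in the positive library 0 were called higher in the top class and 2 lower (Krt7 and Gata3), against 6.36% of 16846 genes called higher and 17.5% lower. For the negative library the count was 0 of 7 higher and 2 lower (again Krt7 and Gata3), against 7.95% of 15878 genes higher and 10.7% lower. The members together were at 27.3 against 35.3 CPM in the positive library, a ratio of 0.772 (0.689 to 0.862), and in the negative library at 19.6 against 20.4 (0.961, 0.816 to 1.12). Without member-rich cells these ratios were 0.862 (0.770 to 0.964) and 1.15 (0.975 to 1.35), and the second turned direction. Of those cells the top class held 0 and the class with 0 held 5 in each library. Leaving them out therefore raises these ratios by construction.

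Gata3 was lower in the top Gata6 and Dab2 class. In the positive library it was at 5.47 CPM (5.03 to 5.94), 6.35 (5.17 to 7.71), 5.75 (3.91 to 8.16) and 1.35 (0.785 to 2.16) from the lowest to the top class. The ratio of the top class to cells with 0 was 0.246 (0.142 to 0.398), and the class of 2 to 4 UMIs overlapped the lowest class. Cells with any Gata6 or Dab2 UMI against those with 0 gave a log2 ratio of -0.32, which is no call. In thinned cells Gata3 was detected in 4.33% of the lowest class (median depth 30545 UMIs) and 1.27% of the top class (30564). The negative library had 116 Gata3 UMIs in cells with 0 and 2 in the top class, 0.843 CPM (0.697 to 1.01) and 0.237 CPM (0.0287 to 0.856). These intervals overlap, and the ratio was 0.281 (0.0336 to 1.04). With any Gata6 or Dab2 UMI against 0 the direction turned in this library, to a log2 ratio of 0.71. Its class with 1 Gata6 or Dab2 UMI had 23 Gata3 UMIs at 2.65 CPM (1.68 to 3.98), of which 11 were in 1 cell. Split by both readouts, positive-library Gata3 was at 5.41 CPM in the 2746 cells low for both, 6.18 in the 1076 with at least 3 Zscan4 UMIs only, 3.19 in the 451 with at least 2 Gata6 or Dab2 UMIs only, and 0.304 (1 UMI) in the 129 with both. Krt7 was at 0.555 CPM (7 UMIs) against 1.12 CPM in the positive library, a ratio of 0.496 (0.195 to 1.05). The negative library had 0 Krt7 UMIs in the top class and 137 in cells with 0. With the 0 set to 3 UMIs the ratio was 0.357, and the interval from the counts was 0 to 0.445. Without the cells rich in members, of which the top class held 0, the Krt7 calls were lost. The ratios were then 0.599 in the positive library and, with the 0 set to 3 UMIs, 0.536 in the negative (interval 0 to 0.673).

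Cdx2 and Plac1 went the other way, on few UMIs. Cdx2 had 12 UMIs in the 395 top-class cells of the positive library and 27 in the 3281 cells with 0, or 0.951 CPM (0.492 to 1.66) and 0.263 CPM (0.173 to 0.382), a ratio of 3.62 (1.67 to 7.39). Negative-library Cdx2 had 9 UMIs in 202 cells and 8 in 3361 cells, or 1.07 CPM (0.488 to 2.02) and 0.0582 CPM (0.0251 to 0.115), a ratio of 18.3 (6.28 to 54.6). These UMIs came from 8 top-class cells in each library, with 5 in 1 of the positive-library cells. Both intervals lie above 1, but Cdx2 was under 50 UMIs in each, so neither is a call. Plac1 had 11 UMIs in 10 top-class cells of the negative library and 17 in cells with 0, or 1.30 CPM (0.651 to 2.33) and 0.124 CPM, a ratio of 10.5 (4.47 to 23.9). All 17 were in the cells rich in members, which were chosen partly by Plac1 itself, and without those cells the counts were 11 and 0. In the positive library 15 UMIs in 10 top-class cells gave 1.19 CPM (0.665 to 1.96) against 0.672 CPM, a ratio of 1.77 whose interval (0.941 to 3.13) includes 1. Without member-rich cells that ratio was 4.52 (2.23 to 8.80). The Plac1 level was highest in the top class of both libraries, with and without member-rich cells. The top class held 0 of those cells, so the ratios given here without them are raised by construction. Rhox6 was at 6.18 against 4.46 CPM in the positive and 4.50 against 3.26 CPM in the negative library. Without member-rich cells its ratios were 1.98 (1.52 to 2.54) and 2.24 (1.55 to 3.15), and the second passed the 2-fold rule, as did Hand1 in the negative library at 2.03 (0.782 to 4.47). Rhox9, of the same cluster as Rhox6, was at 3.80 against 4.77 CPM and 2.13 against 3.26 CPM. Its ratios of 0.798 (0.580 to 1.07) and 0.653 (0.384 to 1.04) became 0.893 (0.649 to 1.21) and 0.957 (0.559 to 1.54) without member-rich cells, and all these intervals include 1.

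**Figure D3:**
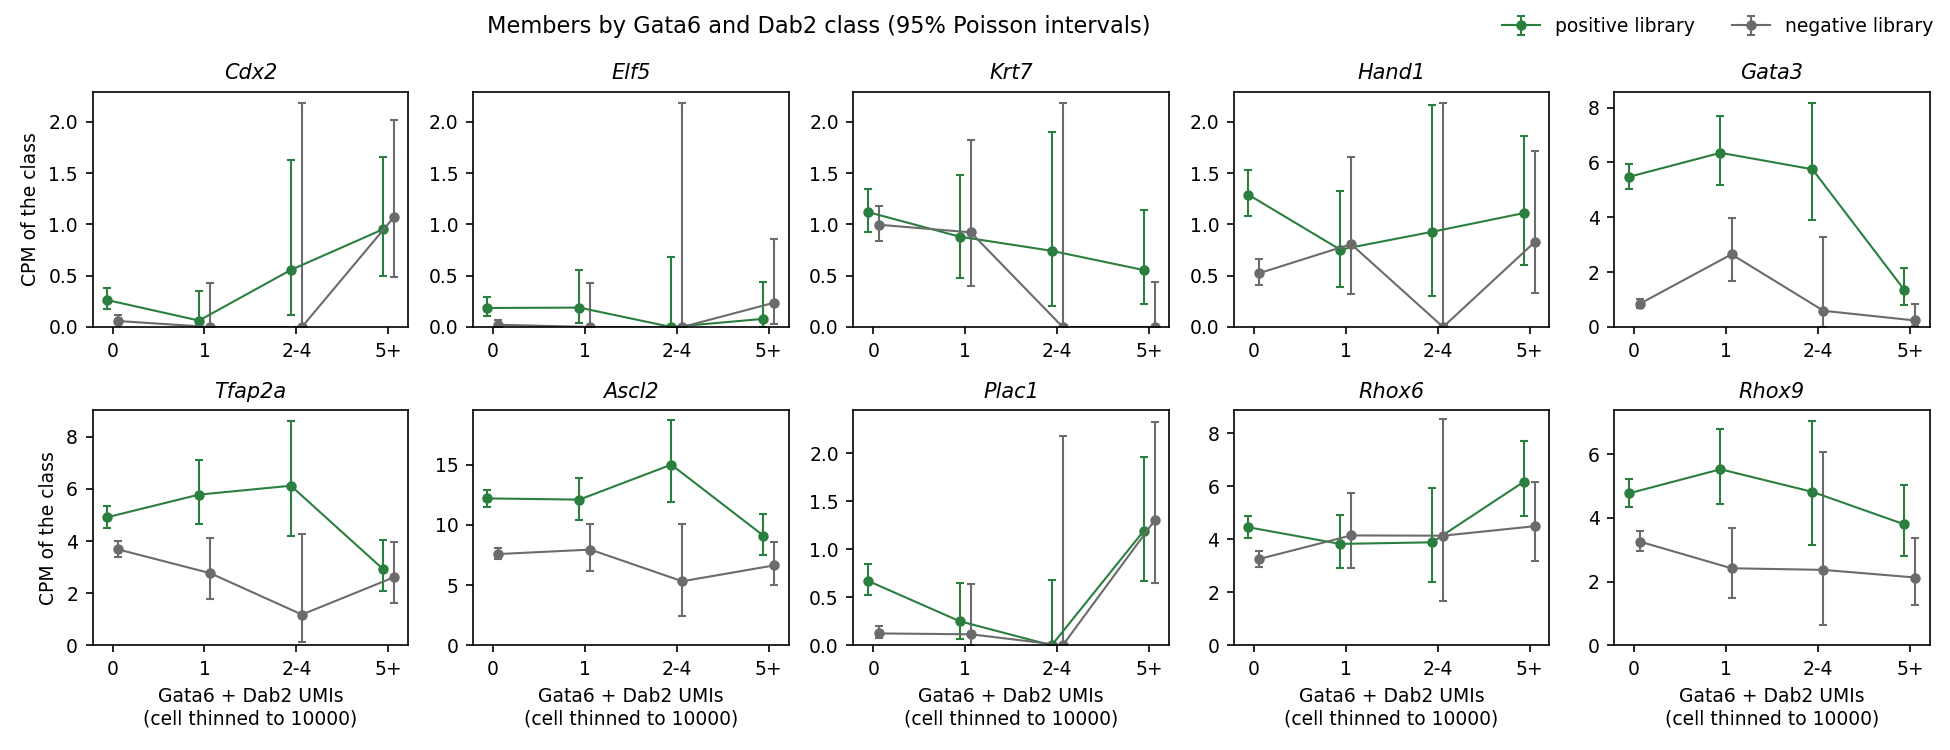
CPM of each member in classes of cells by the sum of thinned Gata6 and Dab2 UMIs (0, 1, 2 to 4, at least 5), in the positive and the negative library, with 95% Poisson intervals. Positive-library Gata3 drops to 1.35 CPM in the top class, while Cdx2 (0.951 and 1.07 CPM) and Plac1 (1.19 and 1.30 CPM) are highest there in both libraries.

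Most cells held few members at once. Counting all UMIs, 1575 positive-library cells had 1 member, 571 had 2, 135 had 3, 28 had 4 and 7 had at least 5. For the negative library the same counts were 1316, 363, 57, 8 and 5. After thinning, 21 of 4402 positive-library cells and 7 of 3824 negative-library cells held at least 3 members. Co-detection was compared with the product of the single shares over the 45 pairs, for the pairs where that product predicts at least 1 cell. It exceeded the product in 20 of 22 such pairs in the positive library (median ratio 1.46) and in 10 of 10 in the negative (median 2.04), and without member-rich cells in 15 of 22 and 9 of 10. Those cells were picked by the number of members they hold, so these lower counts follow in part from that choice. Gata3 and Tfap2a, the early trophoblast factors, shared 22 positive-library cells where the product predicts 8.31, and the count was the same 22 without member-rich cells. The negative library had 0 such cells where 0.870 were predicted. The correlation of their log2(thinned UMIs + 1) over 4402 positive-library cells was r = 0.11, a weak relation among counts that are mostly 0. Genes detected in at least 2% of thinned cells were searched for those most like the members that were themselves found in at least 2% (Gata3, Tfap2a, Ascl2, Rhox6 and Rhox9 in the positive library, the same without Gata3 in the negative). An r of at least 0.2 was found for Rhox6 with Rhox9 (0.27) and with Krt8 (0.20), in the 3824 negative-library cells. Among pairs of members Plac1 also had r = 0.23 with each of Krt7, Rhox6 and Rhox9 there, in counts that are nearly all 0. Without the 5 member-rich cells the Rhox6 and Rhox9 correlation was 0.01 and the 3 Plac1 correlations were -0.00. Those cells were picked for holding several members, so leaving them out lowers such correlations by construction.

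A few cells held many members at high levels. These cells, with UMIs of 5 or more members, were chosen after the values were seen: 7 in the positive and 5 in the negative library. They held 47.7% of all Plac1 UMIs of the positive library and 58.6% of those of the negative, 22.3% and 32.5% of Rhox6, 8.37% and 29.0% of Rhox9 and 15.0% and 31.7% of Krt7. Of Gata3 they held 2.79% and 5.63%, and of Tfap2a 0.599% and 0.181%. The richest cell of the positive library, with 25613 UMIs in all, held 131 UMIs of Rhox6, 51 of Rhox9, 13 of Plac1 and 10 of Ascl2, and 0 of Pou5f1 and Sox2, which encode core pluripotency factors. The richest cell of the negative library, with 29085 UMIs, held 158 of Rhox6, 126 of Rhox9, 36 of Ascl2, 15 of Hand1, 14 of Krt7 and 10 of Plac1, with 1 of Pou5f1 and 0 of Sox2. Both also had many UMIs of Phlda2, an imprinted gene that restrains placental growth, 568 and 268. The cells came from different libraries and had Rhox6 and Rhox9 as their leading members. Neither had a UMI of Gata6, Dab2, GFP or Eomes.

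The other member-rich cells were not all alike. One positive-library cell held 65 UMIs of Ascl2 and 28 of Plac1 with 54 of Tfap2c, another held 17 of Hand1 and 6 of Gata3, and another held 16 of Krt7 with 234 of Krt8 and 322 of Krt18, the keratin pair of simple epithelia. At the low end 1 positive-library cell had 6 member UMIs in all, and 1 negative-library cell had 5, among 123870 UMIs. Summed over the 7 positive-library cells, Krt8 was at 1460 CPM against 29.3 in other cells, Krt18 at 1850 against 33.6, Tfap2c, an AP-2 factor of trophoblast stem cells, at 276 against 18.0, and Sox2 at 89.3 against 455. Single cells carried part of these sums: the cells with 54 Tfap2c UMIs and with 234 Krt8 UMIs are those named above, and 4 of the 7 cells had 0 Tfap2c UMIs. Over the 5 negative-library cells Krt8 was at 604 against 6.59 CPM and Tfap2c at 252 against 39.1, with Sox2 at 305 against 530. Eomes had 0 UMIs in all 12 member-rich cells, and the remaining cells had it at 3.23 CPM (positive) and 1.88 CPM (negative). The member-rich cells held 235087 and 301235 UMIs in all, too few to tell 0 from such levels. Primed epiblast markers were at 311 against 88.0 CPM in the positive library and 76.4 against 76.7 CPM in the negative. Because these cells were picked by the members, only the genes outside the list carry information here, and with so few cells they are a description. The summed level of Pou5f1, Sox2, Nanog and Zfp42 had a median of 294 CPM in the positive-library member-rich cells (lowest 124, highest 834) and 1780 in cells with 0 members. For the negative library the medians were 1500 (138 to 2180) and 2360. In cells with 1 to 3 members the medians were 1700 to 1830 and 2360 to 2400 CPM, and in the 28 and 8 cells with 4 members they were already lower, at 1160 and 1360 CPM.

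**Figure D4:**
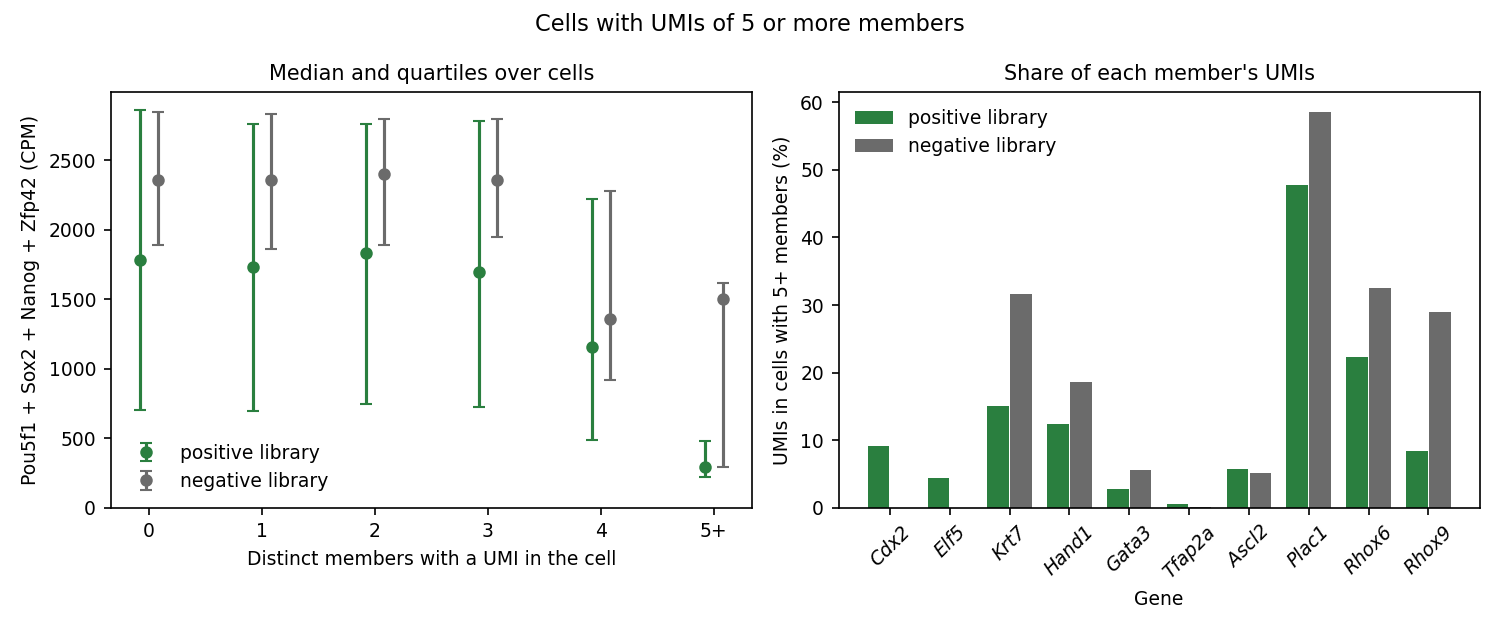
Left, summed CPM of Pou5f1, Sox2, Nanog and Zfp42 per cell (median and quartiles over cells) by the number of distinct members with a UMI; right, percent of each member's UMIs held by cells with 5 or more members (7 positive-library and 5 negative-library cells). The pluripotency genes are at 294 CPM in the positive-library cells with 5 or more members, which hold 47.7% of the Plac1 UMIs.

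The differences between the libraries were set beside those without these cells. Without member-rich cells Cdx2, Hand1, Gata3 and Plac1 were still called higher, and the summed ratio was 1.83 in place of 1.70. Without cells that had at least 2 Gata6 or Dab2 UMIs Hand1, Gata3 and Plac1 were called, and Cdx2 was left with too few UMIs, at a log2 ratio of 2.14 against 1.55 with all cells. Without cells that had at least 3 Zscan4 UMIs the same 4 members were called as with all cells. When each member's 10 highest cells per library were left out, Gata3 was called at a ratio of 6.84 (5.56 to 8.49). Cdx2 (5.65, 2.12 to 18.9) and Plac1 (7.91) had larger ratios than with all cells but fell under 50 UMIs, and Hand1 fell under 2-fold. The cells left out held 70.6% of Cdx2 and 86.2% of Plac1 UMIs in the negative library, against 43.2% and 68.2% in the positive. Their removal thus raises the Cdx2 and Plac1 ratios by construction.

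Other genes of the pathway were read from lists, whose counts stand beside the 18.3% of all genes called higher and 2.48% called lower between the libraries. Of 13 upstream regulators of trophoblast fate, 13 were tested, 2 were called higher in the positive library (Gata2, a GATA factor of trophoblast giant cells, at 1.51 and 0.563 CPM, and Id2, an inhibitor of helix-loop-helix factors, at 73.9 and 30.8 CPM) and 1 lower (Tfap2c, at 18.4 and 39.5 CPM, a ratio of 0.467). Tead4, the factor that partners YAP to activate Cdx2, was at 4.19 and 4.18 CPM, and Eomes, a T-box factor of trophoblast stem cells, at 3.22 and 1.87 CPM. Of 9 signals and receptors 0 were called either way, among them Fgf4 (115 and 83.6 CPM) and its receptor gene Fgfr2 (6.93 and 4.73 CPM). Of 7 keratin and epithelial genes 2 were called higher, Krt8 at 31.7 and 7.74 CPM (ratio 4.10, 3.85 to 4.37) and Krt18 at 36.7 and 8.13 CPM (4.51, 4.24 to 4.80), and 1 lower, Krt19 at 1.71 and 3.55 CPM. Of 22 placental differentiation genes 11 reached 50 UMIs, 5 were called higher (H19, Dlx3, Nrk, Sct and Ppp2r2c) and 0 lower, and Phlda2 was at 115 and 198 CPM. Of 40 other Rhox features 8 were tested, 3 were called higher (Rhox2a, Rhox2h and Rhox7-ps2) and 0 lower. Some list genes also differed with Gata6 and Dab2, and those given here were picked after their values were seen. In the positive library Tead4 was at 12.4 CPM in the top class and 3.16 in cells with 0, Gata2 at 0.317 and 1.31, Id2 at 24.6 and 79.8, Krt8 at 69.2 and 22.7 and Rhox5 at 372 and 141. Negative-library Tead4 was at 15.9 and 3.35 CPM, Id2 at 13.7 and 31.4 and Rhox5 at 402 and 124. Tfap2c was lower with Gata6 and Dab2 in both libraries, at 7.37 CPM in the positive and 10.3 CPM in the negative top class, against library levels of 18.4 and 39.5 CPM.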

How the data were processed

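Single-cell expression was measured in 2 libraries, 1 per group. The authors' deposited matrices hold whole-number counts, read here as UMI counts, for each feature in each barcode. Per the submitters' processing notes mm10, FastQC 0.11.2, Trim Galore 0.6.4 and STAR 2.7.6a were used, with no role or order; cell calling, UMI counting and strand use are not given in the sources used here. Per the labels' protocols RNA was prepared with a total RNA kit and a kit for bulk libraries, which does not describe cell capture.

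UMIs were summed per library or class and scaled to CPM. Intervals are exact at 95%: Poisson for levels, conditional binomial for ratios, Clopper-Pearson for shares. PCR and cell sampling are outside them. A side at 0 was set to 3 UMIs. With 1 library per group the 2-fold rule (at least 50 UMIs) is a description, not a test. No doublet caller was run; an alternative leaves out cells above 2 times the median UMIs. Thinning to 10000 UMIs was without replacement. Of 55415 features, 52081 IDs matched GENCODE M21. Promoters came from RefSeq.

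The members and lists were chosen with earlier results of these data known. All members are named; genes like a member were the top 3 with r of at least 0.2. Steps were tested on simulated data. Alternatives changed scaling, cell filters, thresholds, pseudocount, thinning and classes. Scripts ran in Python 3.11.15 with scipy 1.17.1, numpy 2.4.6 and pandas 2.3.3, and TMM factors came from edgeR 4.0.16 in R 4.3.3.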

Additional observations from a re-analysis of the deposited data

How the results depend on the processing

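No paired analysis was possible because the study has only 1 library for each label. For the same reason leaving out a replicate gives no value. Low counts limit Cdx2, Elf5 and Plac1 most, and their ratios describe these libraries only.

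The 4 higher calls between libraries became 1 with log2(CPM + 1), 1 at 4-fold, 0 when 10 CPM was required (a level that only Ascl2 reaches, so the called members were not tested) and 1 without each member's 10 highest cells (an alternative chosen after seeing the data), and 0 members were called lower in every alternative run. The summed ratio of 1.70 was 1.39 with TMM, 1.48 with median of ratios and 1.83 without cells holding 5 or more members (also chosen after seeing the data). The count at a minimum of 10 UMIs was 5, with Elf5 added.

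For Zscan4, 2 lower calls became 0 with any UMI against 0 and at 4-fold, and 1 when cells were thinned to 5000 UMIs, with low-Gata6 and Dab2 cells only and without member-rich cells. For GFP, thinning to 5000 UMIs gave 1 higher call (Tfap2a), and the lower call count was 0 without member-rich cells. For Gata6 and Dab2 in the positive library, 2 lower calls became 1 with another thinning draw, 0 with any UMI against 0, 1 at 4-fold and 1 without member-rich cells. In the negative library they became 1 with any UMI against 0, 1 at 5000 UMIs, 0 at 4-fold and 1 without member-rich cells, where 2 were called higher (Hand1 and Rhox6). The top class held 0 member-rich cells in both libraries, so leaving them out raises these ratios by construction. The Gata3 log2 ratio in the negative library reversed to 0.71 with any UMI against 0, a contrast that adds the class with 1 UMI, whose 23 Gata3 UMIs include 11 from 1 cell.

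The share of cells with any member, 24.8% and 15.6%, was 50.4% and 45.6% without thinning, 13.3% and 8.22% at 5000 UMIs, and 14.4% in the negative library with another draw. Of the single-member values under other settings, 109 ratios between libraries stayed within the counting interval and 21 moved, 215 class ratios stayed, 24 moved and 1 reversed, and 81 shares and pairs stayed and 39 moved.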
